A study of Mus musculus with 8 samples.

Results

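The autophagy and mitophagy genes described here are the 36 genes of 16593 in the value table whose platform symbol is that of an ATG gene or of a fixed set of autophagy kinases, scaffolds, ATG8 proteins, cargo receptors and mitophagy factors. They were chosen by name and not by their values. Atg9a, Atg14, Atg16l2, Optn, Pik3r4 and Park2, which the same rule would take, were not analysed here. Total RNA came from immortalized mouse brown adipocytes after 8 days of differentiation, of which 4 samples had received the vehicle DMSO and 4 had received 10 µM Z16078526, each for 18 h, with 1 array per sample. Both groups are the same line, no label names a genetic change, and the labels differ in the compound alone. A cell line stands for brown fat without its vessels, nerves or blood cells. The labels do not say whether samples of a group were grown as separate cultures, so the p-values cover sample to sample spread that may be purely technical.

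Autophagy encloses cytoplasm in a double membrane and delivers it to lysosomes. The ULK kinase complex starts the process, a class III PI3 kinase complex marks the membrane with PI3P, and WIPI, ATG2 and ATG9 proteins bring lipid to it. A ubiquitin-like conjugation system then attaches ATG8 proteins, the LC3 and GABARAP families, to the growing membrane, where cargo receptors dock. Mitophagy is the same route with mitochondria as cargo, and in mouse fat it is known for removing mitochondria when thermogenic adipocytes lose their brown character.

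With Z16078526, the genes that rose included 4 of the conjugation system (Atg5, Atg10, Atg12 and Atg16l1), 3 of the ATG8 proteins (Map1lc3b, Gabarapl1 and Gabarapl2), the cargo receptor Tax1bp1 and the mitophagy receptor Bnip3l. The genes that fell were Uvrag, Wipi1, Atg13 and Ambra1. Atg101 and Atg9b also rose. Of the 36 genes, 11 were called higher and 4 lower in limma at an adjusted p under 0.05, with Benjamini-Hochberg adjustment over all genes tested. That is 41.7% called, where 15.2% of all genes were called (7.97% higher and 7.19% lower). Among genes above the floor on all 8 arrays 30.5% were called, and 13 of the 32 autophagy and mitophagy genes in that position were called (40.6%). By direction, 16.1% of all genes so detected were higher and 14.4% lower. Of the 32, 9 were higher (28.1%) and 4 lower (12.5%). The groups did not overlap in 17 of the 36 genes (47.2%), against 19.8% of all genes. Among genes above the floor on all arrays the same shares were 46.9% (15 of 32) and 39.5%. The median log2 difference was 0.09 over the 36 genes and 0 over all genes, of which 33.2% lay at the floor on all arrays. Among genes above the floor on all arrays the medians were 0.09 for the 32 and 0.02 for all genes so detected. Of the called genes, 4 changed over 1.5-fold (Atg9b, Gabarapl2, Tax1bp1 and Uvrag), where 5.33% of all genes were called at that size. Of the 32 genes above the floor on all arrays, 2 did (Tax1bp1 and Uvrag), where 10.1% of all genes so detected were called at that size. Whether the roles differ from each other in their response was not tested. Single values are given as the log2 of the intensity, with anything at or under an intensity of 16 set to 4, called the floor, and differences are treated minus DMSO on the same scale with the standard error (SE) of the fit and n = 4 arrays per group.

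**Figure D1:**
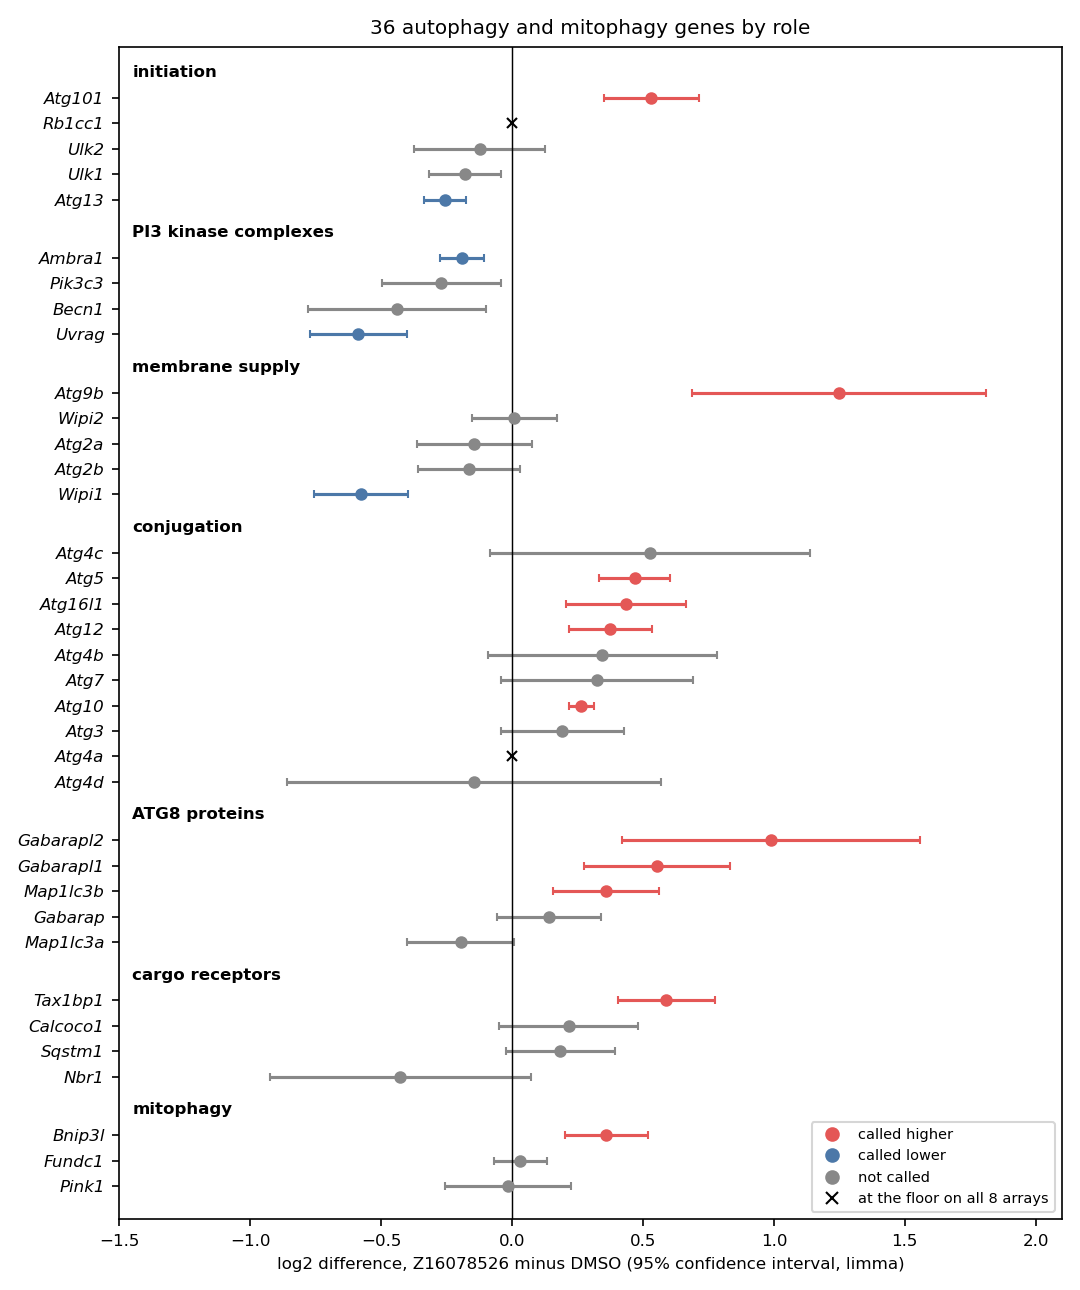
Log2 difference between Z16078526 and DMSO arrays for each of the 36 genes, ordered by role, with 95% confidence intervals from limma (n = 4 arrays per group). All 4 called conjugation genes and all 3 called ATG8 genes lie to the right of 0. On the probes used, all 4 genes of the PI3 kinase group lie to the left, 2 of them called. Second probes of Becn1 and Ambra1, not drawn here, had the opposite sign. The crosses are Rb1cc1 and Atg4a, which lay at the floor on every array.

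Over all genes, the lowest correlation between a pair of arrays was 0.9888. The treated arrays were uneven in 148 probes. These were picked for a mean log2 over 7, an SD over 0.5 in treated and an SD under 0.25 in DMSO. The choice thus looked for unevenness on the treated side only. Their mean deviation from the treated mean ran from 0.68 on treated 1 to -0.76 on treated 3. With this deviation as a covariate, 15 of the 36 genes were called, 14 of them among the 15 reported, with Becn1 in place of Gabarapl2. The covariate has the same mean in both groups by construction. It could thus alter the spread around a difference but not the difference itself, and does not show whether uneven arrays shaped the differences. Without treated 1 and treated 3, 10 of the 15 remained called, and Ambra1, Atg9b, Map1lc3b, Gabarapl1 and Gabarapl2 did not. The cells carried fat cell markers such as Adipoq (14.48 in DMSO) and Lpl (15.12), while Cd36 was above the floor on only 1 array, a treated one, and Ucp1, the thermogenic uncoupling protein, averaged 4.87 in DMSO. Fat cell markers also moved with the compound: of 9 measured, Fabp4 (3.16-fold), Ucp1 (2.59-fold) and Cidea (2.23-fold) were called higher and Pparg (1.35-fold) lower. Fabp4 was dim in DMSO (6.54) and Ucp1 close to the floor there, while Cidea averaged 10.05. The summed intensity of the 9 was 70714 to 73800 on DMSO arrays and 66234 to 71914 on treated arrays, and the part of these shifts in the results below was not tested. Of 7 measured preadipocyte or fibroblast markers, Dcn and Vim were lower and none was higher. The summed intensity of these 7 was 11076 to 12711 on DMSO arrays and 6819 to 9629 on treated arrays. Most of that sum was Vim, whose geometric mean signal went from 9284 with DMSO to 5979 with the compound. Dlk1, Pdgfra, Pdgfrb and Cd34 were not called (log2 differences of -0.20, -0.11, -0.24 and -0.07), and Thy1 was at the floor throughout. The part of these marker shifts in the results below was not tested. In a bulk sample, fewer cells of a type and less RNA per cell cannot be told apart. The 3 measured macrophage markers summed to 48 on each DMSO array, which is 3 times the floor, and to 48 to 49.7 on treated arrays. The 5 endothelial markers summed to 81.5 to 100.2 in DMSO and 80 to 94.2 in treated cells, where Cdh5, Kdr and Emcn were at the floor throughout.

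Promoter sequence gives context for the genes that moved. RefSeq promoter windows of GRCm38.p6 were found for 29 of the 36 genes, and the 250 bases before the start were searched on both strands for 6 motifs. The E-box core CACGTG, the centre of the site bound by the lysosomal and autophagy regulator TFEB and by other factors, was found in Atg3, Atg5 and Atg7. That is 10.3% of the 29, beside 6.86% of 27025 genes with a window. The NRF1 motif, GCGCA and GCGC with 1 base between, was found in 5 (17.2%, beside 4.23%), namely Wipi2, Atg3, Atg4d, Map1lc3b and Pink1, of which only Map1lc3b was called. The cAMP element TGACGTCA (1.77% of genes), the ATF4 and C/EBP core TGATGNAA (3.91%), the FOXO site GTAAACA (3.54%) and the PPAR repeat, AGGTCA and AGGTCA with 1 base between (0.0407%), had no match in these windows. Of the called genes with a window, 2 of the 8 that rose and 0 of the 4 that fell hold any of the motifs, so most genes that rose hold none. Of the 17 uncalled genes with a window, 5 hold at least 1 motif. The windows of Atg5 and Map1lc3b are shown as the 2 called genes with a match, and those of Uvrag and Wipi1 as examples without one. Capitals mark a motif match. The windows are chr10:44268089-44268338 (plus strand), chr8:121590188-121590437 (plus strand), chr7:99141145-99141394 (minus strand) and chr11:109611390-109611639 (minus strand).
Atg5: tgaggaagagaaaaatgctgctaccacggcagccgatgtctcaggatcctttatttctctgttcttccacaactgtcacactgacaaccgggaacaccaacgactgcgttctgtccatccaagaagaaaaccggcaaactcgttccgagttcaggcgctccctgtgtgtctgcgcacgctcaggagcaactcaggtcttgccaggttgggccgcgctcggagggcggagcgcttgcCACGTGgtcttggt
Map1lc3b: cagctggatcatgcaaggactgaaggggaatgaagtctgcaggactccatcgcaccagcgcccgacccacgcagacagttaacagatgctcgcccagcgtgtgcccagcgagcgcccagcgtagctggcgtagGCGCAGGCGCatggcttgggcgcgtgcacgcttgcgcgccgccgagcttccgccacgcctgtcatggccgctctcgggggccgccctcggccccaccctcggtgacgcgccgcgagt
Uvrag: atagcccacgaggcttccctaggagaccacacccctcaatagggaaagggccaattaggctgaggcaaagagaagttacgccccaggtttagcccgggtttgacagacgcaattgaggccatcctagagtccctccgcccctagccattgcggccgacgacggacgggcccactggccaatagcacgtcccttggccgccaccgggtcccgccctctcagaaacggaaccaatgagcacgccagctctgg
Wipi1: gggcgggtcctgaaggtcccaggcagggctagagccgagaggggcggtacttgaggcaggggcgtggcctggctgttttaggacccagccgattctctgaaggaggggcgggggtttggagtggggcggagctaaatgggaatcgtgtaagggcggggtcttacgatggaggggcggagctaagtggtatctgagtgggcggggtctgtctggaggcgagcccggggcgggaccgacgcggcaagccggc
In Atg5 the E-box core begins at position -14 from the annotated start, and in Map1lc3b the NRF1 motif begins at position -117. A match is a run of letters and not a measured site.

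The conjugation system held 4 of the 11 genes that rose, with none of its 10 genes called lower. Atg5, the protein to which ATG12 is joined, read 10.01, 10.16, 10.04 and 9.94 on the DMSO arrays and 10.52, 10.43, 10.61 and 10.47 on the treated arrays. Every treated array lay above every DMSO array, and the gene rose 1.38-fold (log2 difference 0.47 ± 0.06 SE, adjusted p = 0.00311). A second probe for Atg5 gave nearly the same difference, 0.46 ± 0.08.

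Atg12, the ubiquitin-like partner of ATG5, went from 10.25, 10.15, 10.23 and 10.35 with DMSO to 10.50, 10.55, 10.68 and 10.74 with the compound. This is a rise of 1.30-fold without overlap (0.38 ± 0.07, adjusted p = 0.0121). Atg10, the enzyme that transfers ATG12 to ATG5, had the smallest p of the 36 genes in the fit reported, and its arrays had an SD of 0.03 within each group. That rank did not hold in limma with robust variance, where Atg10 had an adjusted p of 0.0119 and Tax1bp1 1.29e-07. Atg10 read 10.67, 10.65, 10.72 and 10.68 in DMSO and 10.97, 10.91, 10.93 and 10.96 in treated cells, a rise of 1.20-fold (0.26 ± 0.02, adjusted p = 0.000696). Its second probe gave 0.16 ± 0.18, and with the mean of both probes Atg10 was not called (0.21, adjusted p = 0.219).

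Atg16l1 binds the ATG12 to ATG5 conjugate and places it on the membrane. Its values were 9.92, 9.73, 9.79 and 9.92 in DMSO and 10.03, 10.26, 10.40 and 10.41 in treated cells, with treated 1 closest to the controls. The gene rose 1.35-fold (0.43 ± 0.10, adjusted p = 0.0259), but it kept its call in only 1 of the 8 fits that left out 1 array, the one without treated 1 (adjusted p = 0.00767, and up to 0.0753 in the others). The parts of ATG12 to ATG5 to ATG16L1 that were measured thus all passed the test, each by under 1.5-fold.

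The other 6 conjugation genes did not pass. Atg7, the activating enzyme of both branches, read 6.81, 6.73, 7.01 and 6.55 in DMSO and 6.96, 7.03, 6.96 and 7.45 in treated cells, which overlapped (0.32 ± 0.15, adjusted p = 0.269). Atg3, the enzyme that transfers ATG8 proteins to lipid, had a difference of 0.19 ± 0.10 (adjusted p = 0.318). The proteases that trim ATG8 proteins were dim: Atg4b, Atg4c and Atg4d had DMSO means of 5.09 to 5.78, and Atg4a lay at the floor on all 8 arrays. The confidence intervals (95%) of the 3 above the floor were wide, from -0.86 to 0.57 for Atg4d, and the data do not settle whether they changed.

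Of the 5 ATG8 genes measured, 3 rose and none was called lower. Gabarapl1 read 10.36, 10.11, 10.36 and 10.59 in DMSO and 10.79, 10.82, 10.92 and 11.11 in treated cells. The groups were apart, and the rise was 1.47-fold (0.55 ± 0.12, adjusted p = 0.0221). The call was lost without DMSO 1 (adjusted p = 0.0623), DMSO 3 (0.0609) or treated 3 (0.0553).

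Map1lc3b, which encodes LC3B, the protein most used as a marker of autophagosomes, read 9.39, 9.57, 9.41 and 9.54 in DMSO and 9.71, 10.03, 9.88 and 9.73 in treated cells. It rose 1.28-fold without overlap (0.36 ± 0.08, adjusted p = 0.0339). Of the 8 fits without 1 array, 2 kept the call, those without treated 1 or treated 4, and the largest adjusted p of the others was 0.0951. Its close relative Map1lc3a did not pass, with 9.81, 9.87, 9.87 and 10.07 in DMSO and 9.76, 9.70, 9.85 and 9.53 in treated cells (-0.20 ± 0.09, adjusted p = 0.223), and its second probe gave -0.35 ± 0.21. The difference between the responses of the LC3 genes was not tested.

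Gabarap, which gives its family the name, had means of 13.33 ± 0.14 (SD) and 13.47 ± 0.10, and did not pass (0.14 ± 0.08, adjusted p = 0.408). Gabarapl2 was called higher from a signal close to the floor. It read 4.19, 4.94, 4.13 and 4.00 in DMSO and 5.01, 5.63, 5.30 and 5.28 in treated cells, a difference of 0.99 ± 0.24 (adjusted p = 0.0358). With a floor of 50 all its values were at the floor and the gene was not called, and its second probe gave 0.11 ± 0.18. With the mean of both probes it was not called (0.55, adjusted p = 0.0932). Of the 8 fits without 1 array, 2 kept its call, those without DMSO 2 or treated 1 (adjusted p up to 0.100 in the others).

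**Figure D2:**
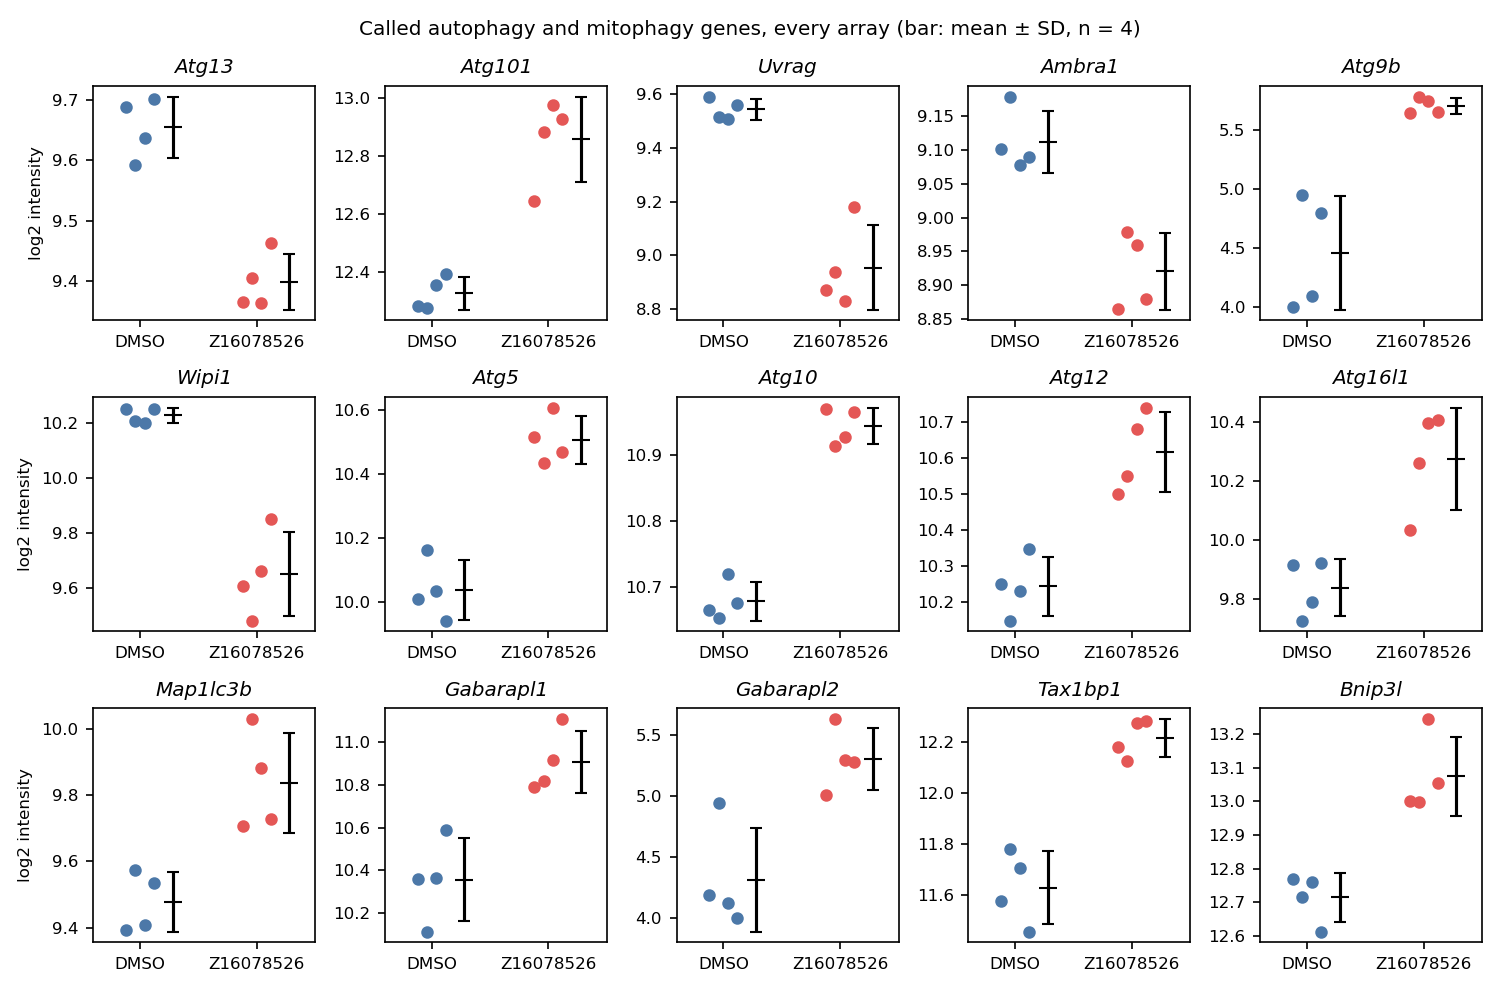
Log2 intensity on every array for the 15 called genes, with DMSO arrays on the left of each panel, Z16078526 arrays on the right and the mean ± SD of 4 arrays beside them; each panel has its own scale, which does not start at 0. No panel has overlapping groups, and Atg9b and Gabarapl2 lie near the floor of 4.

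Of the 14 genes of initiation, the PI3 kinase complexes and membrane supply, 4 fell and 2 rose. Uvrag, a partner of Beclin 1 in the PI3 kinase complex that acts on endosomes and on maturing autophagosomes, read 9.59, 9.52, 9.51 and 9.56 in DMSO and 8.87, 8.94, 8.83 and 9.18 in treated cells. The groups did not overlap, and the log2 difference was -0.59 ± 0.08 (adjusted p = 0.00424), just over 1.5-fold. Ambra1, a scaffold that activates Beclin 1, went from 9.10, 9.18, 9.08 and 9.09 to 8.86, 8.98, 8.96 and 8.88, which is 1.14-fold lower (-0.19 ± 0.04, adjusted p = 0.0139). A second Ambra1 probe had a difference of 0.13 ± 0.09, in the opposite direction, and with the mean of its probes the gene was not called (adjusted p = 1).

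Becn1, which encodes Beclin 1, did not pass on its brightest probe, although the groups did not overlap. That probe read 8.58, 8.42, 8.53 and 8.81 in DMSO and 8.39, 8.15, 7.81 and 8.23 in treated cells (-0.44 ± 0.14, adjusted p = 0.0961). Its second probe read 0.40 ± 0.16 higher, from 7.05, 6.84, 6.99 and 6.93 to 7.56, 7.50, 7.47 and 6.89, so the Becn1 probes disagree in sign. Pik3c3, the catalytic subunit VPS34, had values of 9.57, 9.20, 9.49 and 9.52 in DMSO and 9.04, 9.18, 9.29 and 9.19 in treated cells. It did not pass either (-0.27 ± 0.09, adjusted p = 0.123), though it did without DMSO 2 (adjusted p = 0.0206). On the probes used, all 4 genes of this group had a difference below 0, 2 of them called, while second probes of Becn1 and Ambra1 lay above 0.

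The calls of Becn1, Pik3c3 and Ambra1 differed with the set of genes tested. When only genes above the floor on at least 4 arrays were tested, Becn1 and Pik3c3 were called lower (adjusted p = 0.0125 and 0.0348), and Ambra1 was not (0.0753). With the mean of its probes, Becn1 had a difference of -0.02 and was not called.

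The initiation complex was mixed. Atg101, the small partner that stabilises ATG13, read 12.28, 12.27, 12.35 and 12.39 in DMSO and 12.64, 12.88, 12.98 and 12.93 in treated cells, and it rose 1.45-fold (0.53 ± 0.08, adjusted p = 0.00569). Atg13, the adaptor that links the kinase to its scaffold, fell 1.19-fold (-0.26 ± 0.03, adjusted p = 0.00397), from 9.69, 9.59, 9.64 and 9.70 to 9.37, 9.41, 9.36 and 9.46. These partners in 1 complex thus moved in opposite directions, each with groups that did not overlap. With robust variance Atg13 was not called (adjusted p = 0.0574), nor was Ambra1 (0.270).

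The kinase gene Ulk1 read 9.73, 9.51, 9.48 and 9.51 in DMSO and 9.34, 9.36, 9.41 and 9.39 in treated cells. Its groups did not overlap, and it did not pass (-0.18 ± 0.06, adjusted p = 0.0920). DMSO 1 stood apart from the other DMSO arrays, and without it Ulk1 was called lower (-0.12, adjusted p = 0.0251). The second Ulk1 probe gave -0.09 ± 0.08, and with the mean of both probes Ulk1 was not called (-0.14, adjusted p = 0.253 in limma). Ulk2, the second kinase of the complex, had a difference of -0.12 ± 0.10 (adjusted p = 0.684), and its second probe gave 0.40 ± 0.15 in the opposite direction. Rb1cc1, the scaffold FIP200, lay at the floor on all arrays, so its level is known only as at or below an intensity of 16.

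Among genes that bring membrane to the site, Wipi1 fell and Atg9b rose. Wipi1, which binds PI3P, read 10.25, 10.21, 10.20 and 10.25 in DMSO and 9.61, 9.48, 9.66 and 9.85 in treated cells. The DMSO arrays were tight, every treated array lay below them, and the fall was 1.49-fold (-0.58 ± 0.07, adjusted p = 0.00393). Its other probes read -0.20 ± 0.13 and -0.56 ± 0.13. Wipi2, the family member that recruits ATG16L1, had a difference of 0.01 with a 95% confidence interval of -0.15 to 0.17 (adjusted p = 1), and its other probes gave 0.08 ± 0.15 and -0.74 ± 0.27.

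Atg9b, a membrane protein of the ATG9 family, was dim. It read 4.00, 4.95, 4.09 and 4.79 in DMSO and 5.64, 5.78, 5.74 and 5.66 in treated cells. Its difference of 1.25 ± 0.23 (adjusted p = 0.0146) is measured partly against the floor, was 0.06 at a floor of 50 and was not called there (adjusted p = 0.258). The lipid transfer genes Atg2a and Atg2b did not pass, at -0.14 ± 0.09 and -0.17 ± 0.08 (adjusted p = 0.464 and 0.291). A second Atg2a probe had a difference of -0.50 ± 0.16.

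Of the 4 cargo receptors measured, 1 rose. Tax1bp1, a ubiquitin-binding receptor, read 11.57, 11.78, 11.70 and 11.45 in DMSO and 12.18, 12.13, 12.27 and 12.29 in treated cells. It rose just over 1.5-fold, without overlap (0.59 ± 0.08, adjusted p = 0.00424). Sqstm1, the receptor p62, which is both cargo receptor and cargo, read 12.72, 12.81, 12.89 and 12.86 in DMSO and 13.23, 12.92, 12.85 and 13.03 in treated cells. The groups overlapped (0.18 ± 0.09, adjusted p = 0.266). Nbr1, a relative of p62, and Calcoco1, a receptor for endoplasmic reticulum, had differences of -0.43 ± 0.21 and 0.22 ± 0.11 (adjusted p = 0.287 and 0.317).

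Of the mitophagy factors, Bnip3l rose. Bnip3l, also named NIX, is a receptor in the outer mitochondrial membrane and read 12.77, 12.72, 12.76 and 12.61 in DMSO and 13.00, 13.00, 13.25 and 13.05 in treated cells. The rise was 1.28-fold with no overlap (0.36 ± 0.07, adjusted p = 0.0138). Fundc1, another outer membrane receptor, had a difference of 0.03 with a 95% confidence interval of -0.07 to 0.13 (adjusted p = 0.896), and its second probe read 0.09 ± 0.06. Pink1, the kinase that marks damaged mitochondria, had a difference of -0.02 with an interval of -0.25 to 0.22 (adjusted p = 1), and its second probe gave -0.61 ± 0.43. For Fundc1 and Pink1 these intervals, on the probes used, leave out a log2 change of the size measured for Bnip3l.

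Several genes could be read more than once. The 36 genes were read by 60 probes, 18 of them by a single one. In 12 genes, 2 or more probes had a mean log2 above 6, and all such probes had the same sign in 9 of the 12 and opposite signs in Ambra1, Becn1 and Ulk2. What separates the probes of these genes was not tested.

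**Figure D3:**
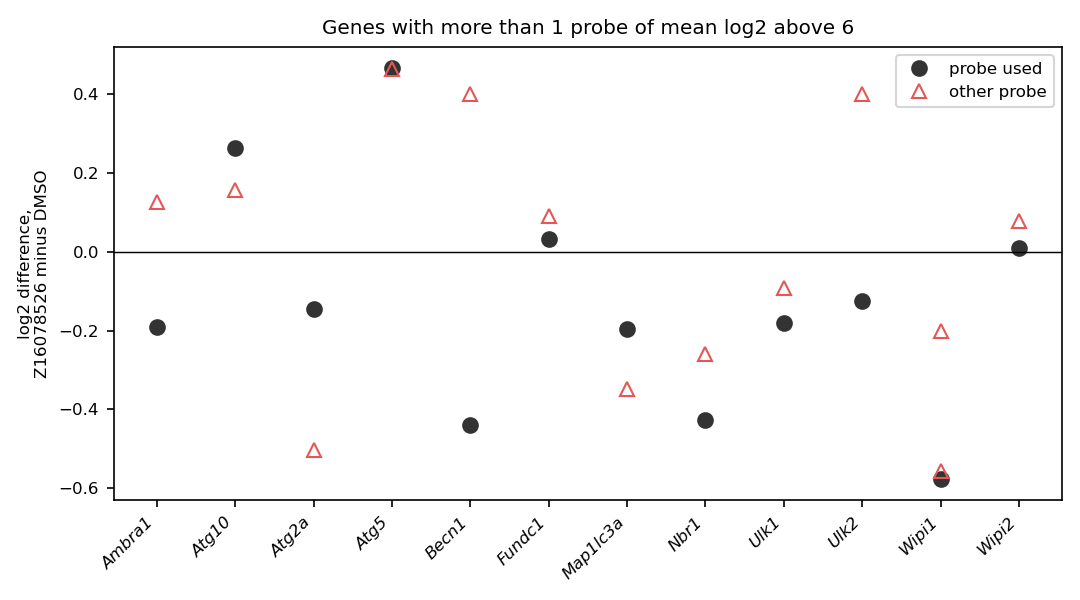
Log2 difference between Z16078526 and DMSO arrays for each probe of the 12 genes with more than 1 probe of mean log2 above 6; filled circles are the probes used and open triangles the others. Both Atg5 probes lie near 0.47, and Ambra1, Becn1 and Ulk2 have probes on both sides of 0.

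Genes of the pathway beyond the 36 were called at shares of 25.7% to 29.3% of those measured, beside 15.2% of all genes. Every called gene of these lists was above the floor on all arrays. Among genes so detected, 7 of 23 in completion and fusion, 9 of 27 in other selective autophagy and 12 of 31 in upstream control were called. Of all genes so detected, 30.5% were called. Of 26 genes of autophagosome completion and fusion, 6 were higher and 1 lower. Tmem41b, an endoplasmic reticulum scramblase needed for autophagosome formation, rose 1.73-fold (0.79 ± 0.15, adjusted p = 0.0155). Stx17, the SNARE that fuses autophagosomes with lysosomes, rose by 0.58 ± 0.14 on the log2 scale (adjusted p = 0.0316). The WIPI relative Wdr45b rose 1.21-fold (adjusted p = 0.0149). The tethering subunit gene Vps11 rose 1.32-fold (adjusted p = 0.0127), while Vps18, a subunit of the same tether, fell 1.26-fold (adjusted p = 0.0104). Without DMSO 3, treated 2, treated 3 or treated 4, 3 genes of this list were called higher, and without treated 1 or treated 4, 2 were called lower.

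Of 35 other genes of selective autophagy and mitophagy, 7 were higher and 2 lower. Stbd1, which binds glycogen and ATG8 proteins, rose 2.02-fold (1.01 ± 0.08, adjusted p = 0.000698). Nipsnap1, a mitochondrial protein that recruits autophagy receptors, rose 1.42-fold (adjusted p = 0.00465), the mitochondrial ubiquitin ligase gene Marchf5 1.49-fold (adjusted p = 0.0129) and the outer membrane channel gene Vdac1 1.26-fold (adjusted p = 0.00295). Keap1, a partner of p62, fell 1.25-fold (adjusted p = 0.00931), and Tollip fell 1.21-fold (adjusted p = 0.0383). Without any 1 of the DMSO arrays, or without treated 1 or treated 4, 1 gene of this list was called lower.

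Of 41 genes that control autophagy from upstream, 6 were higher and 6 lower. Zkscan3, a zinc finger repressor of autophagy genes, rose 2.28-fold (1.19 ± 0.17, adjusted p = 0.00587), and Fnip1, a folliculin partner, rose 1.47-fold (0.55 ± 0.04, adjusted p = 0.000791). Nupr1, a stress-induced nuclear protein, and Tbc1d7, a subunit of the TSC complex that restrains mTORC1, rose 1.35-fold and 1.26-fold (adjusted p = 0.00779 and 0.0142). Foxo1, a transcription factor that activates autophagy genes, fell 1.59-fold (-0.67 ± 0.08, adjusted p = 0.00303). Tsc2, another TSC subunit, fell 1.28-fold (adjusted p = 0.00562), the Rag GTPase gene Rragc 1.19-fold (adjusted p = 0.0162) and the AMPK subunit gene Prkab1 1.13-fold (adjusted p = 0.0182). Without DMSO 1, DMSO 3 or treated 2, 3 genes of this list were called lower.

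**Figure D4:**
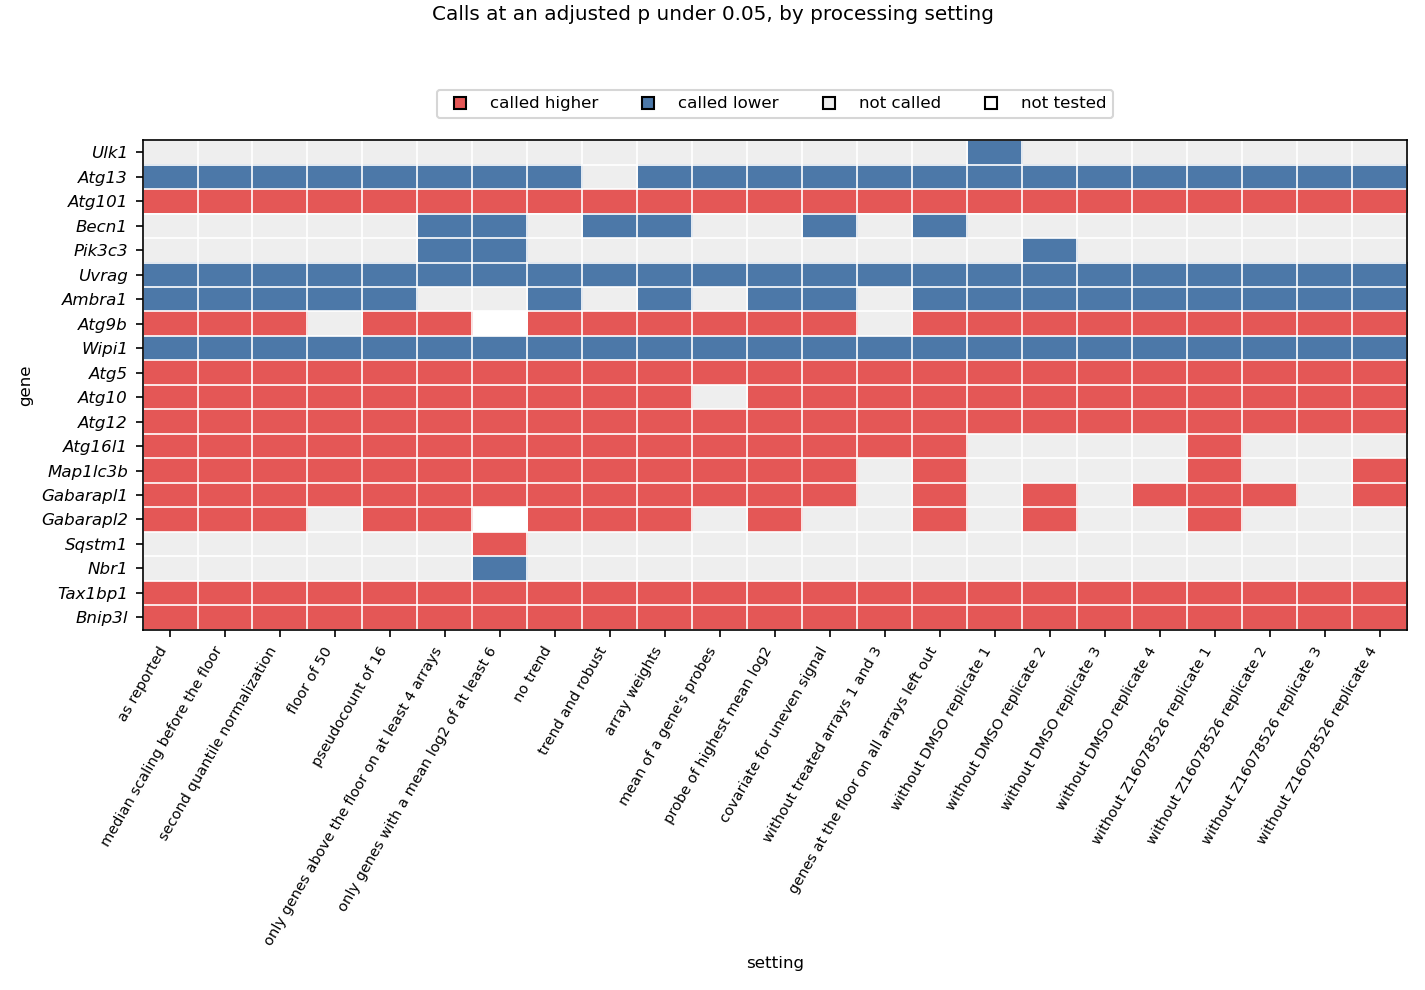
Calls at an adjusted p under 0.05 for the genes called in any setting, with genes in rows and processing settings in columns; red is higher with Z16078526, blue lower, grey not called and white not tested; the replicate block and the 1.5-fold threshold are not among the columns. Atg101, Uvrag, Wipi1, Atg5, Atg12, Tax1bp1 and Bnip3l keep their colour across all 23 columns, while Atg16l1, Map1lc3b and Gabarapl2 lose it in most fits without 1 array.

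Over the 22 other settings in the plot of calls, which leave out the replicate block and the 1.5-fold threshold, no called gene changed sign, and Gabarapl2 had no difference with a floor of 50. For most settings this was fixed in advance. The groups of the called genes do not overlap, so leaving out arrays could not turn a difference round. Filters on the genes tested left the differences as they were. The 7 genes that kept their calls in all 22 settings were Atg101, Uvrag, Wipi1, Atg5, Atg12, Tax1bp1 and Bnip3l. In the 8 fits that left out 1 array, 11 of the 15 kept their calls in every fit and Atg16l1, Map1lc3b, Gabarapl1 and Gabarapl2 did not. Without DMSO 1, DMSO 3 or treated 3, 7 genes were called higher in place of 11.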

How the data were processed

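The deposited values are linear intensities of 25697 Illumina probes on 8 arrays, and per the submitters' processing notes GenomeStudio was used. All columns share 1 upper quartile (308) and 1 maximum (41175), as quantile normalization leaves them, and 28.3% to 28.4% of values lay below 0, as background subtraction leaves them. The number of arrays limits the precision.

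Intensities were set to at least 16 and log2 was taken. Probes were named through the platform annotation given with the series, and for each of 16593 genes the probe of highest mean intensity was used. Groups were compared with limma 3.58.1 in R 4.3.3 (lmFit, eBayes with trend, two-sided), with Benjamini-Hochberg adjustment over all genes, after a test on simulated data. The genes, lists, roles and tests were chosen with earlier results of these data known. Every one of the 36 genes is accounted for, with values per array for called genes and the 6 uncalled ones of smallest p, and from each other list up to 4 called genes per direction are named. The motifs were chosen after the values were seen. Alternatives covered scaling, floor, filters, variance model, probe choice, replicate block, threshold and each array left out, and 3 were added after seeing the data: the covariate for uneven signal, leaving out treated 1 and 3, and leaving out genes at the floor.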

Additional observations from a re-analysis of the deposited data

Results flagged for a closer look

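Within groups of 4 arrays, 3 of the 68 gene and group combinations examined had 1 array far from the other 3. Ulk1 read 9.73 on DMSO 1, where the other DMSO arrays lay between 9.48 and 9.51. Wipi2 read 9.03 on treated 2, against 8.86 to 8.89 on the other treated arrays, and Atg7 read 7.45 on treated 4, against 6.96 to 7.03. Chance flags about 1 in 20 groups.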

How the results depend on the processing

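Of the 36 genes, those called kept their direction under all alternatives run, except that Gabarapl2 had a difference of 0 with a floor of 50, while counts moved. Most of these alternatives could not have changed a direction. They left out arrays from groups that do not overlap, or left the differences as they were. The number of all genes called was 2516 of 16593. With only genes above the floor on at least 4 arrays tested, it was 3670 of 9165. Of the 36 genes, 34 were tested there and 16 called, with a median log2 difference of 0.16 over the 34. With a floor of 50 the median over the 36 genes was 0.02. With only genes of a mean log2 of at least 6, 3491 of 7049 genes were called, and 16 of 30 among the 36. With 1 array left out, the number of all genes called was 1774 to 2465. The 36 genes then had 7 to 11 higher and 4 to 5 lower, completion and fusion 3 to 5 and 1 to 2, other selective autophagy 5 to 6 and 1 to 2, and upstream control 4 to 5 and 3 to 8. Same-numbered arrays deviated from their group means with r of -0.11, 0.05, -0.25 and 0.21. Arrays of different numbers were not compared, so these values do not settle whether the numbers pair samples. The fit with the replicate number as a block called 1123 genes. Of the 36 it called 6 higher, without Atg9b (adjusted p = 0.0651), Atg16l1 (0.107), Map1lc3b (0.0643), Tax1bp1 (0.0556) and Bnip3l (0.0578), so 5 genes (Atg101, Uvrag, Wipi1, Atg5 and Atg12) kept their calls in all settings but the 1.5-fold threshold. Single genes of the other lists were not followed across settings. In that block fit completion and fusion had 1 higher, other selective autophagy 4 higher and 0 lower, and upstream control 2 higher and 1 lower. At an unadjusted p under 0.05 in limma with the block, 4 genes of the other selective list were lower where 0 were called. With a further threshold of 1.5-fold, 884 genes were called, 3 of the 36 higher and 1 lower, completion and fusion 2 and 0, other selective autophagy 1 and 0, and upstream control 1 and 1 (2 and 4 lower at an unadjusted p in limma where the count is 0). Without treated 1 and 3, 7 of the 36 were higher, completion and fusion had 3 higher and 0 lower (4 lower at an unadjusted p in limma), other selective autophagy 4 and 1, and upstream control 3 and 3. Lower calls in completion and fusion were 3 with either filter on dim genes and 2 with robust variance, array weights, the mean of probes or genes at the floor left out. Lower calls in other selective autophagy were 1 with the mean of probes, and 4 with a mean log2 of at least 6 or the covariate. That filter also called Sqstm1 (adjusted p = 0.0428) and Nbr1 (0.0406), and Becn1 was called in 6 settings. Among the 36, differences that changed sign were of genes not called: Wipi2 (-0.0004 with quantile normalization, -0.22 with the mean of probes, and -0.0292 to 0.0633 with 1 array left out), Ulk2 (0.14 with the mean of probes), Pink1 (0.0388 without treated 1 and 3, and -0.0975 to 0.0339 with 1 array left out), Fundc1 (-0.0056 to 0.0518) and Atg4d (-0.3567 to 0.0789). The cause was not tested. Signal near the floor limits Atg4b, Atg4c, Atg4d, Atg9b and Gabarapl2.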
